A study of Mus musculus with 24 samples.

Results

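Regions of chromatin that were called accessible in mouse embryonic stem cells at 2i and at day 0 (D0), and at no later time of a differentiation course towards cardiomyocytes, numbered 3044 of 128679 merged regions. ATAC-seq, in which the Tn5 transposase inserts sequencing adapters into open DNA, was carried out on the A2lox.cre line at 12 time points with 2 biological replicates each, 24 samples in all. The time points were 2i, D0, D1, D2, D3, D4, D5, D6, D7, D8, D10 and D15. A2lox.cre is 1 established line with a docking site for inducible transgenes, and no transgene or added agent beyond the 2i stage is named in the labels. 2i is a medium with a pair of kinase inhibitors, against MEK and GSK3.

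The peaks of the 12 lists were merged, and a region was a member if it overlapped a peak by at least 1 bp at D0 and at 2i and overlapped none at the other 10 time points. Members were thus chosen by the peak calls themselves, so their number, their peak values and their absence later are descriptions and carry no test. Each time point has 1 deposited peak list for both replicates, so no spread between replicates can be given. Intervals below are Wilson 95% intervals and cover counting error only. Absence from a list means that no peak was called, not that the site was closed, and fewer cells with an open site cannot be told apart from less opening per cell.

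In naive pluripotency, held by 2i medium, transcription factors such as ESRRB, TFCP2L1, KLF family members and NANOG act together with OCT4 and SOX2 at enhancers that often lie far from promoters. When the inhibitors are withdrawn, naive factors are lost within days while OCT4 and SOX2 persist into the formative stage, and many enhancers close or are replaced by others at the same gene. Promoters rich in CpG dinucleotides, by contrast, tend to stay accessible across cell types.

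The labelled stage was set against marker genes first. An annotated start of Pou5f1, which encodes OCT4, lay in a region called at 2i, D0, D1, D2, D3 and D4 and at no later time. The start of Zfp42, a marker of the naive state known as Rex1, was called at each time from 2i to D8. The start of Nkx2-5, an early cardiac factor, was called at D2, D3, D5, D6, D7 and D8, and neither at 2i or D0 nor at D10 or D15. The starts of Mesp1, a cardiac mesoderm factor, and Myh6, a cardiac myosin gene, were in no list. A region inside Mesp1, chr7:79792636-79793568, ended just short of its start at 79793590. That region was called at 2i, D2, D3, D5, D6, D7, D8 and D10. The start of T, a primitive streak factor, was called at D0, was not called at 2i or D1, and was called from D2 to D8. An annotated start of Tnnt2, cardiac troponin T, was first called at D5 and was called in each list after that. At Nanog, the start was called at 2i, D1, D2 and D3 but not at D0. Not all stem cell genes followed the stage. The annotated starts of Esrrb were called neither at 2i nor at D0. The first in the genome was called at D7 and D8, the other from D2 to D8 and at D10. Starts of Klf2, Klf4, Sox2 and Tfcp2l1 were called at all 12 time points.

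Of the promoters that RefSeq places in this assembly, 51 promoters of 47 genes start inside 47 members. These were the members whose sequence could be read. The sequences of 4 of them are shown because their genes have known roles in stem or germ cells or in chromatin, a choice made after their values were seen. Each runs from 250 bases before the transcript start to the start itself, 5′ to 3′ on the gene's strand, from RefSeq GRCm38.p6, and capitals mark matches to the motifs listed after them.
Kdm3a: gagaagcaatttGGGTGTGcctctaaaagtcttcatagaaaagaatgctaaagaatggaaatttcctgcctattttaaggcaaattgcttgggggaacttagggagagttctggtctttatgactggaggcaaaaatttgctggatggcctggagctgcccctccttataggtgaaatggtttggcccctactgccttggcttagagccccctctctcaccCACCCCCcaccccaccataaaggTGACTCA
Crxos: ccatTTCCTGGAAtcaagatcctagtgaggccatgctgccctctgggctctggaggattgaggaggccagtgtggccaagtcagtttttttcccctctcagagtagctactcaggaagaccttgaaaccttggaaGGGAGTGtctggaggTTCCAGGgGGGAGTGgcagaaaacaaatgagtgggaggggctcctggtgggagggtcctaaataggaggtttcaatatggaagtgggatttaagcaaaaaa
Tcl1: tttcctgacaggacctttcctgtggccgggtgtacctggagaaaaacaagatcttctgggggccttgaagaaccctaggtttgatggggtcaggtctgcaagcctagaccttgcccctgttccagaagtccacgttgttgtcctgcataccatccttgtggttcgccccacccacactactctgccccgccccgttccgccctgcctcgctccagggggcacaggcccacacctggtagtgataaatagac
Gtsf1l: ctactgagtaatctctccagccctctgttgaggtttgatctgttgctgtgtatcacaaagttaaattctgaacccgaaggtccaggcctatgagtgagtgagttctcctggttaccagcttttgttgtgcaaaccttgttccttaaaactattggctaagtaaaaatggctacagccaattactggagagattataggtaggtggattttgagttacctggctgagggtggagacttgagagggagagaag
Kdm3a encodes a histone demethylase that acts on histone H3 lysine methylation. The stretch shown is chr6:71609139-71609389 on the minus strand, and its member, chr6:71609038-71609631, had 13 reads at the summit at D0 and 17 at 2i, with folds of 4.77 and 5.15 over local background. It is an internal start of the gene, since on the minus strand it lies downstream of the other 2 annotated starts, at 71632686 and 71632917. Those 2 starts lie in a region called at all 12 time points. Crxos is a homeobox gene beside Crx, shown at chr7:15901396-15901646 on the plus strand. Its member, chr7:15901273-15901826, had 9 reads at D0 and 21 at 2i, and of the gene's other 2 starts 1 was called at 2i alone and 1 was in no list. Tcl1 encodes a coactivator of the kinase AKT that is abundant in naive stem cells, shown at chr12:105222737-105222987 on the minus strand. Its member, chr12:105222372-105223062, had 12 reads at D0 and 16 at 2i. Gtsf1l, a relative of the germ cell factor Gtsf1, is shown at chr2:163089601-163089851 on the minus strand. Its member, chr2:163089566-163089999, had 11 reads at D0 and 24 at 2i. Folds at D0 and 2i were 2.91 and 5.53 for Crxos, 3.39 and 3.72 for Tcl1, and 4.36 and 6.26 for Gtsf1l. Ranked by fold within each list, the lower of the D0 and 2i percentiles was 44.0 for Kdm3a and 33.6 for Gtsf1l. It was 10.0 for Tcl1 and 1.15 for Crxos, so the last 2 were weak by fold, Crxos at D0 only.

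Motifs were searched on both strands. Those of the stem cell network were AAGGTCA, the half-site that ESRRB reads, TTTGCAT, a stretch of the octamer that OCT4 reads, CATTGT for SOX factors, GGGNGTG for KLF factors and TTCCNGG for STAT factors. Those of other factors were GGAATG for TEAD, TGANTCA for AP-1, TAATCC for OTX, GATAAG for GATA factors and CAGCAGG for ZIC factors. The Kdm3a sequence has a KLF match on each strand and an AP-1 match that ends at the start, and the Crxos sequence has KLF and STAT matches, 2 of the STAT matches overlapping. No match lies in the Tcl1 and Gtsf1l stretches. Over the 300 bases of each promoter, a STAT match was present in 18 of the 51 promoters inside members (35.3%, 23.6 to 49.0), against 30.7% of promoters in regions that were called at D0 and 2i and again later and 26.2% of all promoters. A KLF match was present in 17 of 51 (33.3%, 22.0 to 47.0), against 37.7% and 29.0%. AP-1 matches were present in 6 of 51 (11.8%, 5.51 to 23.4), against 3.74% and 7.85%, and SOX matches in 8 of 51 (15.7%, 8.17 to 28.0), against 6.17% and 12.2%. No GATA match was present in 51 (0%, 0 to 7.00; the limit of 3 counts is 5.88%), against 4.01% and 7.47%. For 9 of the 10 motifs the share over all promoters lay inside the interval of the members' promoters, the exception being GATA, so most differences in motif content were not detectable with 51 promoters. The 51 include overlapping promoters of the same gene, at Gm40251, Gm35946 and Lamb3, which were counted as separate. The intervals are therefore too narrow, and the GATA exception, 7.47% against a limit of 7.00%, is too close to rely on. Against promoters called later too, the shares of SOX, TEAD and AP-1 lay below the members' intervals. For TEAD, 11.0% against a lower limit of 12.5% is also close, and the overlapping Gm40251 promoters each have a TEAD match. The lower shares among promoters called later too can be set against other promoters. Higher shares of these 3 motifs were not particular to members, since promoters in no region had 17.6%, 17.0% and 10.9%. Promoters in regions called at 2i only had 16.3%, 20.9% and 8.14%.

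Base composition differed more. The 51 promoters inside members had a median of 4 CpG dinucleotides in 300 bases and a GC content of 49.0%, against 23 CpG and 62.7% GC for 12669 promoters in regions called at D0 and 2i and again later. At least 10 CpG were present in 5 of the 51, or 9.80%, against 89.9%. Tcl1 is among the 5, with 11 CpG. Similar medians were found for the 86 promoters that start in regions called at 2i only (4 CpG, 49.2% GC) and to the 16109 that start in no region (3 CpG, 46.7% GC). Of the 47 genes, 22 are protein-coding and 25 are long noncoding RNA genes, among them Platr8, a noncoding RNA named for its link to pluripotency. The Platr8 member was a weak call, with folds of 3.45 at D0 and 2.48 at 2i and a lower percentile of 0.198.

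The number of members can be read against all regions and against other pairs of time points. Members were 2.37% of all regions and 11.6% of the 26340 regions called at both D0 and 2i. The 12 lists form 66 pairs, and the median number of regions called in exactly those 2 lists of a pair was 88.5. The pair of D0 and 2i, with its 3044, ranked 2 among the 66, after D7 and D8 with 5281 and before D5 and D7 with 1521. D0 and D1, also neighbours in time, shared 873 such regions.

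**Figure D1:**
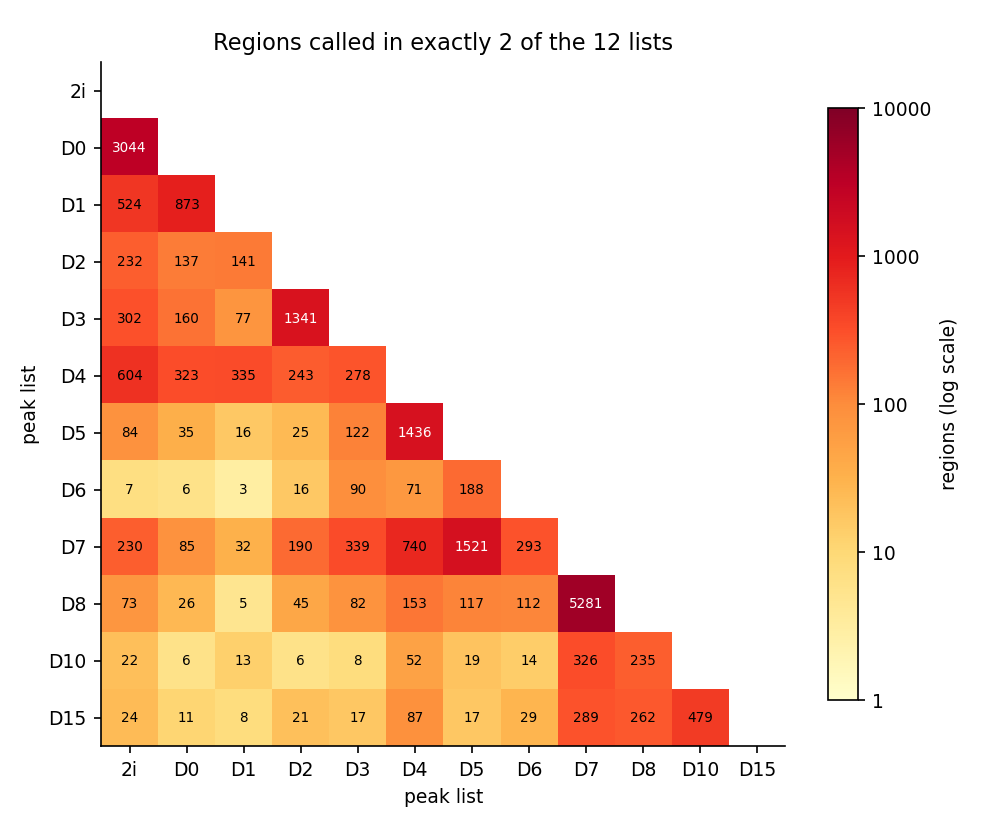
Number of regions called in exactly 2 of the 12 peak lists, with both axes giving the lists in order of time and the colour giving the number of regions on a log scale. The cell of D0 and 2i holds 3044, that of D7 and D8 holds 5281, and the median over the 66 cells is 88.5.

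Leaving out the D1 list moved the number of members more than leaving out any other later list. D1 is the shortest of the 12 lists, with 31324 peaks, against 40370 at D0, 46032 at 2i and 66993 at D7, the longest. Of the 26340 regions called at both D0 and 2i, 72.7% were called in the D1 list, 71.0% in the D2 list, 68.1% in the D3 list and 64.4% in the D4 list. The share was 59.9% in the D5 list, 53.4% in the D6 list and 62.1% in the D7 list, then 58.7%, 51.6% and 49.5% in those of D8, D10 and D15. At D1, 7197 of them were not called. Of these 7197, 3044 or 42.3% were members, and the other 4153 were called again at some later time. A further 2739 regions missed membership by exactly 1 later list, which was D1 for 1882, D3 for 243, D4 for 232 and D2 for 223. Without the D1 list the rule would give 4929 members, and without any other single later list 3047 to 3290. A peak of a later list lay within 1 kb of the edge of 276 members (9.07%), among them 120 with a D7 peak and 100 with a D4 peak, the lists with most peaks (66993 and 56053).

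**Figure D2:**
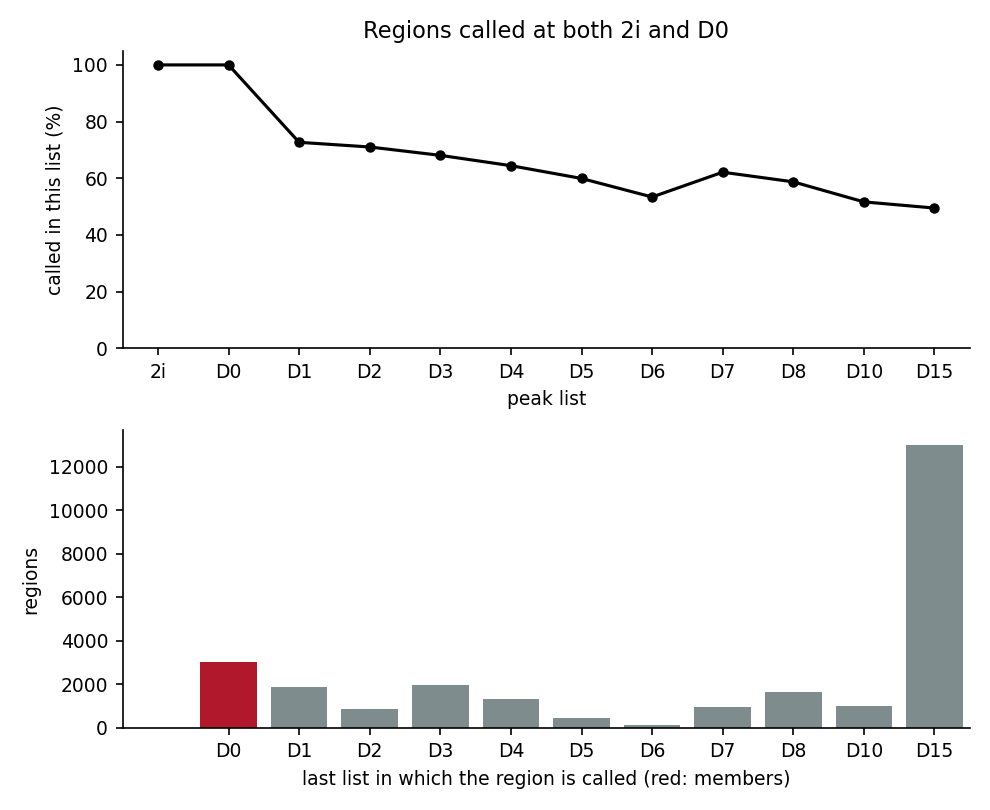
Upper panel, share in percent of the 26340 regions called at both 2i and D0 that were called in each list, by list in order of time. Lower panel, number of these regions by the last list in which each was called, with the 3044 members in red at D0 and 13032 regions last called at D15.

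Within each list, the members' peaks were weaker than those of regions called at D0 and 2i and again in any later list. Not all of these 23296 regions stayed called, since 4153 were absent at D1 and 13032 were called at D15. Fold enrichment over local background, the authors' value for each peak, had a median of 4.41 at D0 and 5.08 at 2i in members, with ranges of 2.42 to 10.8 and 2.21 to 14.4. In the regions called later too, the medians were 6.02 at D0 and 6.27 at 2i. Ranked within its own list, a member's peak stood at a median percentile of 36.6 at D0 and 49.4 at 2i, against 66.9 and 69.0 for regions called later too. Both peaks reached the 50th percentile in 644 members and the 90th in 13. The folds of the 2 lists come from separate scalings, so a higher fold at 2i than at D0 is not a change.

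The fold and the p-value of a peak together fix the whole number of reads piled up at its summit and the local background, and a whole number was recovered for 99.97% to 100% of the peaks in each list within 0.02 of a step. Members had a median of 11 reads at the summit at D0 (7 to 33) and 14 at 2i (7 to 90), against 19 and 21 in regions called later too. The commonest background per base was 1.36 reads at 2i and 1.49 at D0, the lowest of the 12 lists, against 1.62 at D4 to 2.84 at D7 in the later lists. The lowest fold called at that background was 3.21 at D0 and 3.39 at 2i, against 3.36 at D1 and 2.85 to 3.20 in the lists from D2 on. The part of weak peaks in the member count was not tested. With a −log10 q of at least 5 asked in every list, the rule gave 1660 members, and with that limit at D0 and 2i alone 857.

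Among themselves the members were uneven in strength. Their D0 and 2i fold percentiles had a Spearman's rho of 0.38 over 3044 members, as a description across regions that share 2 lists, against 0.68 over the 23296 regions called later too. The 2 values are not like for like, since members span a narrower range. Their D0 folds had quartiles of 3.69 and 5.22, against 4.70 and 7.63. A −log10 q of at least 5 was reached in both lists by 857 members (28.2%), at D0 by 1082 and at 2i by 1920. Just inside the rule, 58 members had a lower −log10 q under 1.5, with median folds of 3.02 at D0 and 3.82 at 2i. Just outside it, 31 regions were kept out by a single later peak with a −log10 q under 1.5, and they had median folds of 4.14 at D0 and 4.99 at 2i. Members with 1 summit in each list, 2795 in number, had a median distance of 74 bp between the D0 and 2i summits, and 60.6% were within 100 bp. The same distance was 57 bp, with 68.6% within 100 bp, for 16852 regions called later too. The 2 sets were not matched for peak strength. With a −log10 q of at least 5 asked at D0 and 2i, the members' median was 46 bp, and the other set was not taken at that limit. As merged regions, members had a median width of 607 bp against 1020 bp. Regions called later too are merged from more lists, which widens them by construction. Within a list, the median peak width was 419 bp in members against 670 bp at D0, and 515 bp against 703 bp at 2i.

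Members lay away from promoters. A centre within 1 kb of either end of a protein-coding gene was found in 77 of 3044 members (2.53%, 2.03 to 3.15), against 42.9% (42.3 to 43.5) of regions called at D0 and 2i and again later and 11.9% of all regions. Inside a gene and over 1 kb from its ends lay 42.0% of members, against 25.5% of regions called later too. Members over 50 kb from any gene were 29.5% (27.9 to 31.2), against 15.6% (15.1 to 16.0). Transcript starts lay in 47 of 2958 members (1.59%), against 42.0% of regions called later too, and the median distance of a centre to the nearest start was 37.9 kb against 6.52 kb, both without chromosome 18, whose starts were not used here. Regions called at 2i only resembled members, with 2.77% at gene ends and 27.3% over 50 kb from a gene. Regions called at D0 and D1 only had 1.26% at gene ends and 54.9% (51.6 to 58.1) over 50 kb away, a share well above that of members.

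**Figure D3:**
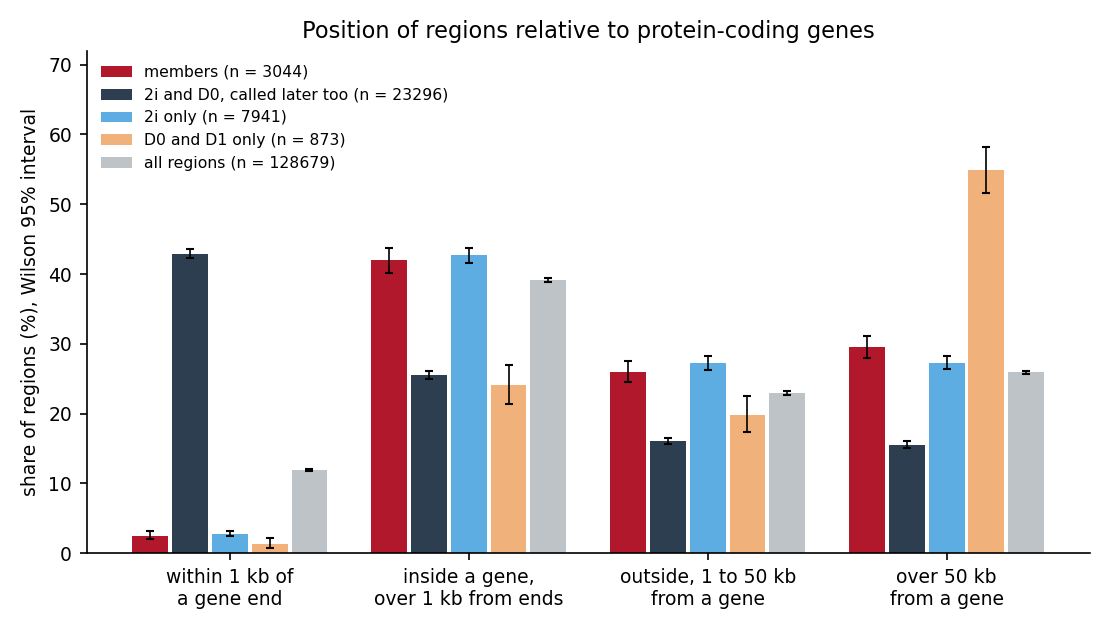
Share of regions in percent, with Wilson 95% intervals, in 4 positions relative to protein-coding genes, for members and 4 other sets of regions. Members have 2.53% within 1 kb of a gene end, against 42.9% for regions called at 2i and D0 and later too, and 29.5% against 15.6% over 50 kb from a gene.

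Since promoters give strong peaks and members were weak, the same shares were taken within bands of fold percentile, using the lower of a region's D0 and 2i percentiles. In the band up to the 25th percentile, 3.02% of 1323 members (2.23 to 4.09) were at gene ends, against 24.0% of 4225 regions called later too. From the 25th to the 50th the shares were 2.14% of 1077 members and 30.3%, and from the 50th to the 75th 2.60% of 538 members and 47.1%. Above the 75th percentile no member of 106 was at a gene end (0 to 3.50%; the limit of 3 counts is 2.83%), against 60.8% of 6879. Members had the lower gene-end share in each of the 4 bands. Read the other way, members made up 0.765% (0.612 to 0.955) of the regions called at both D0 and 2i within 1 kb of a gene end. They made up 17.7% inside genes, 17.4% outside genes within 50 kb and 19.9% (18.7 to 21.1) over 50 kb away.

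**Figure D4:**
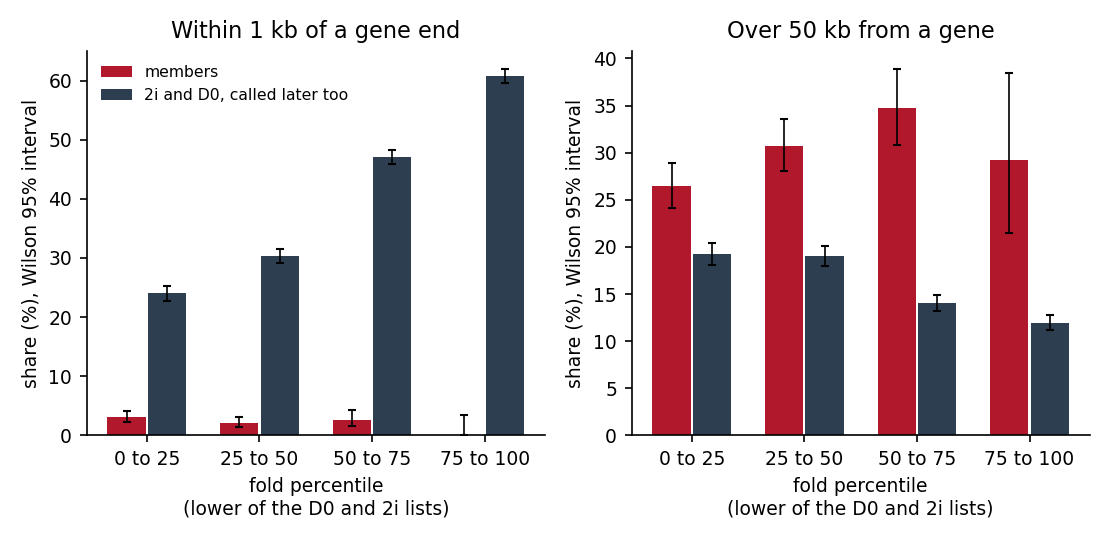
Share in percent, with Wilson 95% intervals, of members (left bar of each pair) and of regions called at 2i and D0 and later too (right bar), within 1 kb of a gene end and over 50 kb from a gene, by band of within-list fold percentile. Gene-end shares of members stay at or below 3.02% in each band, while those of regions called later too run from 24.0% to 60.8%.

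Within 50 kb of a protein-coding gene lay 2145 members, which is 2.25% of all regions so assigned and 9.83% of those called at both D0 and 2i. Naive pluripotency genes held 10 members among 167 regions (5.99%, 3.28 to 10.7), above that share of 2.25%, and among their 56 regions called at both times the members were 17.9% (10.0 to 29.8), just above 9.83%. Members lay at 6 of these 17 genes. With regions within 1 kb of a gene end set aside, members were 9 of 46 (19.6%, 10.7 to 33.2), an interval that holds the 17.6% over all genes counted in the same way. The list is small and moves with the settings: 6 members were left with assignment within 20 kb, 4 with a −log10 q of at least 5 in every list, 3 with that limit at D0 and 2i alone, and 4 with equal numbers of peaks per list.

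Tet2, which encodes an enzyme that oxidises methylcytosine, had 3 members among its 20 regions. The member inside the gene, chr3:133524351-133525376, had 29 reads and a fold of 7.96 at D0, and 90 reads and a fold of 12.2 at 2i, at percentiles of 87.2 and 99.1. Its D0 and 2i summits were 38 bp apart. The others lay 9.13 kb downstream, with 7 reads at D0 and 17 at 2i, and 45.7 kb upstream, with 13 and 10. The Tet2 start itself was called at all 12 time points, and 7 of the 8 regions at Tet2 called at both D0 and 2i were called neither at D10 nor at D15.

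Tfcp2l1, a transcription factor of the naive network, had 2 members. The member inside the gene, chr1:118642384-118643145, had 14 reads at D0 and 44 at 2i, with folds of 4.66 and 7.05 and summits 20 bp apart. The other, 1.83 kb upstream, had 11 reads at D0 and 27 at 2i over a high local background and stood at the 0.291 percentile at D0. The Tfcp2l1 start was called at all 12 time points.

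**Figure D5:**
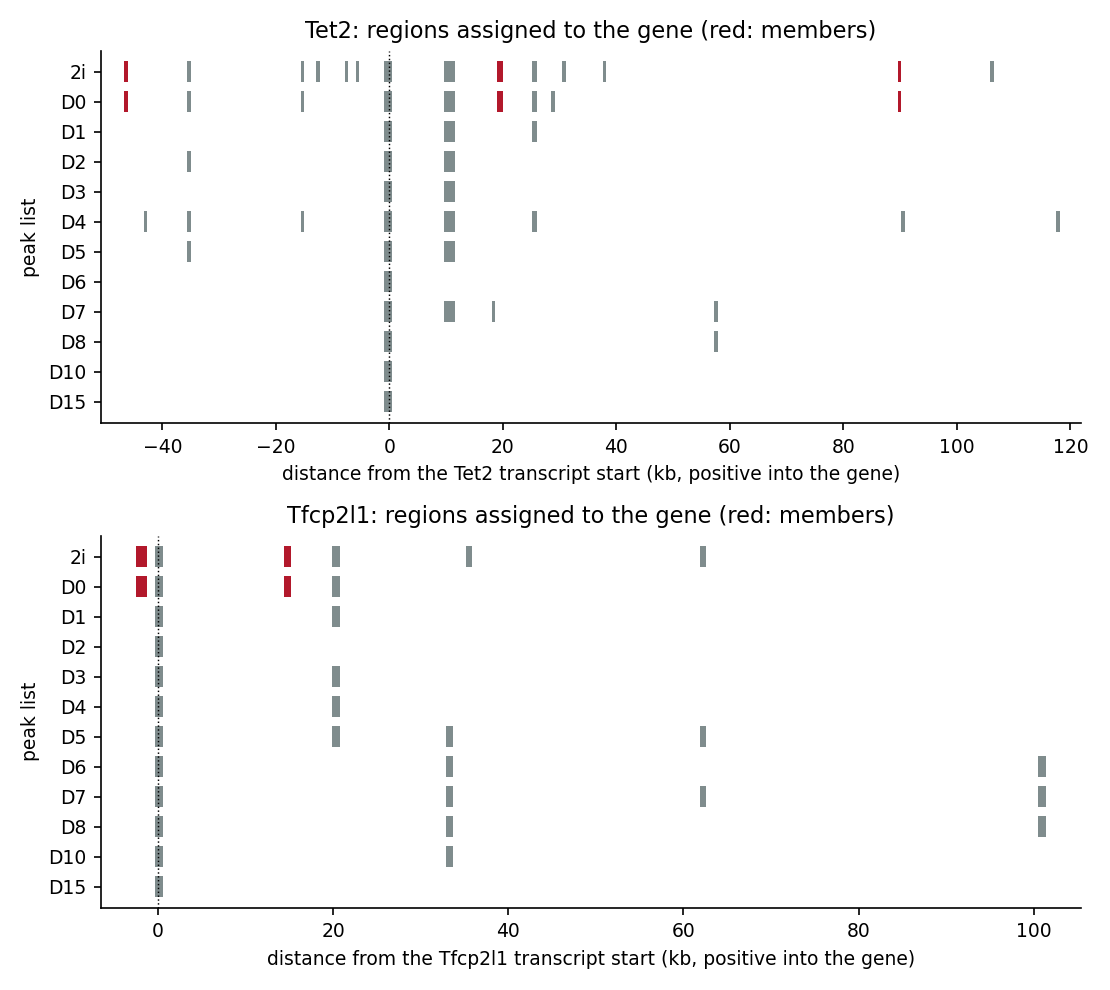
Regions assigned to Tet2 and to Tfcp2l1 in each of the 12 peak lists, drawn over the span of the merged region (at least 0.6 kb wide), by distance in kb from the transcript start in the direction of transcription. Members, in red, appear at 2i and D0 only, while the region at the start of each gene is present in all 12 lists.

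Zfp42 had 2 members, 32.5 kb downstream with 11 reads at D0 and 8 at 2i, and 46.8 kb upstream with 23 at each time. Nr0b1, which encodes the nuclear receptor DAX1, a partner of the naive network, had 1 member 10.5 kb upstream, with 11 reads at D0 and 24 at 2i. Klf5, a KLF factor of the naive state, had 1 member 41.9 kb from the gene with 7 reads at D0 and 14 at 2i, and Tcl1 had the start region described above. No member was assigned to Nanog, Esrrb, Klf2, Klf4, Tbx3, Prdm14 or Dppa3. At Esrrb, 5 of the 6 regions called at both D0 and 2i were still called at D1, and at Klf2 all 3 were.

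Core pluripotency genes, which the formative stage still uses, had 3 members among 57 regions (5.26%, 1.81 to 14.4), and none lay at Pou5f1 or Sox2. Zfp281, a zinc finger factor active in the exit from naive pluripotency, had 1 member 11.4 kb upstream with 11 reads at D0 and 26 at 2i. Utf1 and Dppa5a, chromatin-bound and RNA-binding markers of stem cells, had 1 each within 1 kb of the gene, with 21 and 19 reads at D0 and 19 and 25 at 2i. These reads stood over a high local background. Folds were 3.43 and 3.57 at D0 and 3.12 and 3.87 at 2i, at percentiles of 10.5 and 12.7 at D0 and 3.69 and 20.4 at 2i.

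LIF and STAT3 signalling genes had 3 members among 89 regions (3.37%, 1.15 to 9.45), all at Lifr, the receptor for the cytokine LIF that supports stem cell self-renewal. The Lifr member 8.63 kb upstream of the gene bound, chr15:7081676-7082294, had 17 reads at D0 and 28 at 2i, with summits 16 bp apart. Inside the gene bounds, the member chr15:7115302-7116260 had 22 reads at each time, and chr15:7167616-7168116 had 11 at D0 with 9 at 2i. Of the gene's 2 annotated starts, that at 7129572 was called at all 12 time points and that at 7140542 at none. The members at 7081676 and 7115302 lie upstream of both starts. Wnt and GSK3 signalling genes had 3 members of 166 regions (1.81%), 1 each at Axin2, a Wnt target and inhibitor, Gsk3b, the kinase that 2i inhibits, and Tcf7l2, a nuclear effector of Wnt. FGF and ERK signalling genes, the other pathway that 2i blocks, had no member among 120 regions (0 to 3.10%; the limit of 3 counts is 2.50%). Housekeeping genes had none among 45 (0 to 7.87%; the limit of 3 counts is 6.67%). Both intervals hold the share of 2.25% over all regions assigned to a gene. Of the 30 FGF and ERK regions called at both D0 and 2i, none was a member (0 to 11.4%), an interval that holds 9.83%.

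Germ line and 2-cell-like genes held 5 members among 55 regions (9.09%, 3.95 to 19.6), above the share of 2.25%. Away from gene ends, members were 5 of their 14 regions called at both times (35.7%, 16.3 to 61.2), an interval that holds 17.6%. Prdm1, a founder of the germ line, had 2 inside the gene, with 11 and 9 reads at D0 and 10 and 11 at 2i. Rhox5, an X-linked homeobox gene of reproductive tissue, had 1 with 10 reads at D0 and 12 at 2i. Tcstv1, from a gene family of the 2-cell-like state, had 1 with 11 reads at D0 and 22 at 2i, and it belongs to a multigene family in which short reads can be misplaced. Tfap2c, which the extraembryonic list also holds, had 1 with 9 reads at D0 and 19 at 2i, and it was the single member of that list's 103 regions (0.971%). DNA methylation genes had 3 of 61, all at Tet2 and already counted.

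Formative and primed genes had 2 members of 102 regions (1.96%), at Foxd3, a factor that primes enhancers, and at Zic5. The Foxd3 member, 19.8 kb upstream, had 17 reads at D0 and 50 at 2i, with folds of 5.61 and 8.47. Primitive streak and mesoderm genes had 3 of 106 (2.83%, 0.967 to 7.99), all at Bmp4, a growth factor that patterns mesoderm, with 10, 18 and 14 reads at D0 and 9, 8 and 12 at 2i. The annotated Bmp4 transcript start was called neither at D0 nor at 2i, and was first called at D4. Another region inside Bmp4, chr14:46386950-46388929, was called at all 12 time points.

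Cardiac genes had 2 members of 201 regions (0.995%, 0.273 to 3.55), both at Ryr2, the calcium release channel of heart muscle. The Ryr2 member inside the gene had 19 reads at D0 and 28 at 2i, and the one 29.4 kb upstream had 18 and 23, with folds of 7.32 at D0 and 7.68 at 2i. Both were strong for members, at the 73.3 and 82.3 percentiles at D0. The Ryr2 start was called at all 12 time points. Neural ectoderm genes had 1 of 86 (1.16%), at Pax6, and adhesion genes 2 of 106 (1.89%), at Cdh2, which encodes N-cadherin, and at Ncam1.

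Across the genome, 1746 protein-coding genes had a member, 1457 of them a single one and 20 at least 4. The genes with most were long. Pde4d, a phosphodiesterase that degrades cyclic AMP, had 9 among its 26 regions called at both D0 and 2i. Robo1, an axon guidance receptor, had 7 of 14, and Immp2l, a mitochondrial inner membrane peptidase, had 6 of 17. Adamtsl1, Cntnap2, Diaph3, Rabgap1l and Tenm3 had 5 each. Agbl4 and Dock1, first by alphabet among 12 genes with 4, complete the set of 10, and 4 of 6 shared regions of Dock1 were members. Over all protein-coding genes, members were 9.83% of regions called at both times, and 17.6% of those away from gene ends. The genes named were chosen by their member counts, so their higher shares follow in part from the choice and were not tested. Genes with a member had a median length of 68.5 kb, against 26.8 kb for genes with any region called at both times and 17.3 kb for all protein-coding genes.

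The strongest members by the lower of their 2 percentiles were 4 inside genes, 2 within 50 kb upstream of a gene and 4 farther from any gene. The member 28.3 kb upstream of Meox2, a mesodermal homeobox gene, chr12:37080020-37080536, had 32 reads at D0 and 40 at 2i, with folds of 10.8 and 11.2, at the 98.1 and 98.0 percentiles. A member 7.28 kb upstream of Magi3, a scaffold protein of cell junctions, had 25 reads at D0 and 45 at 2i, and one inside Lipo3, a lipase gene, had 25 and 27. Those inside Sh2d4b, an SH2 domain protein gene, Psmc2, a proteasome subunit gene, and Zc2hc1a had 27, 24 and 24 reads at D0 and 64, 33 and 25 at 2i. The other 4 were over 50 kb from a gene, at 55.3 kb from Ccna1, 91.7 kb from Edil3, 250.1 kb from Grik2 and 311.5 kb from Rwdd3. The last of these had 24 reads at D0 and 83 at 2i, with a fold of 14.4 at 2i, the highest of any member.

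At gene ends, the 15 strongest members by the same measure were led by Ftdc2, Serpinb6c, a serine protease inhibitor gene, Gabrp, a GABA receptor subunit gene, and Csn3, which encodes kappa casein. They had 17, 20, 16 and 18 reads at D0 and 25, 34, 19 and 23 at 2i. They were followed by Wrnip1, Tmod2, Crybg3, Gm11780, Hspa4, Nck2, Ang2, Macrod2, 1700016C15Rik, Fam227b and 4930548H24Rik. D0 folds over the 15 ran from 4.89 to 7.15, below those of the 10 strongest members. No gene of the naive or core lists is among them.

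Most members stood alone. Runs of consecutive merged regions that were all members, with centres at most 20 kb apart, comprised 2889 single members, 73 pairs and 3 runs of 3. The runs of 3 lay at Elf1, an ETS factor gene, over 19.3 kb, at Eml4, a microtubule protein gene, over 10.7 kb, and inside Adamtsl1 over 15.8 kb. Folds in the Elf1 run were 7.51, 4.82 and 3.89 at D0 and 7.38, 5.21 and 3.21 at 2i. The first pairs in genome order lay 469.8 kb from Slc4a3 and 69.8 kb from Tsn. Another member lay within 20 kb of 9.36% of members (8.38 to 10.4), against 6.08% (5.78 to 6.40) of regions called later too and 9.26% of regions called at 2i only. A region called at all 12 time points lay within 20 kb of 17.3% of members and 20.8% of regions called later too. By chromosome, members were 8.12% (6.83 to 9.61) of the regions called at both D0 and 2i on chromosome 11 and 14.7% (13.1 to 16.3) on chromosome 1, the lowest and the highest, with 12.5% on X.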

How the data were processed

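ATAC-seq libraries came from 24 samples, 2 per time point. The submitters' processing notes name MACS2 2.1.1, Bowtie2 2.3.2, SAMtools 1.5, cutadapt 2.10, Picard and the build mm10, with no roles or settings. The sources used here do not give how replicates were combined, the extension length or any transposase shift. The deposited narrowPeak lists give, for each peak, a score, a fold enrichment (linear ratio to local background) and the −log10 of p and of q, as the authors' peak caller wrote them.

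Peaks were merged with bedtools 2.31.1 (1 bp overlap), and members were chosen from the calls. The members and the gene lists were chosen with earlier results of these data known. Summit reads k and background λ were solved from fold = (k + 1)/(λ + 1) and the Poisson p. Backgrounds compare between lists only if the extension length was the same. This and the member rule were checked on simulated data. Depth as total reads was not used here.

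Gene bounds and promoters came from RefSeq GRCm38.p6, the assembly that mm10 names: 21631 protein-coding genes, and 32851 promoters of 27025 genes, with all 14 gene groups matched by symbol. A region was assigned to the gene holding its centre, else to the nearest within 50 kb. The genome sequence was not used here, so the planned motif search in members was replaced by one in promoters. Named genes were members at naive and core genes, up to 3 genes with most members per other group, the 10 genes with most members, the 10 strongest members, the 5 longest runs and the top 15 at gene ends. Markers of stage, Platr8 and the 4 printed promoters were added after their values were seen. Python 3.11.15, pandas 2.3.3 and SciPy 1.17.1 were used.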

Additional observations from a re-analysis of the deposited data

How the results depend on the processing

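No paired analysis was possible because each time point has 1 peak list for both replicates, and for the same reason no replicate could be left out. A −log10 q of at least 5 in every list gave 1660 members, 4 of them at naive genes, with 35.1% over 50 kb from a gene and a summit distance of 47 bp. The same limit at D0 and 2i alone gave 857 members, 3 at naive genes, 32.3% over 50 kb away and 46 bp. With the same 31324 peaks per list there were 1795 members, 4 at naive genes, and 54 bp. Without the D1 list there were 4929 members, with 35.6% over 50 kb away and 68 bp. Asking that 50% of the region be covered moved the summit distance to 70 bp. Members with folds of at least 3.36 in both lists, a setting added after the data were seen, included 5 at naive genes and gave 67 bp, but were 2577 in all. By construction, gene-end limits of 500 bp and 2 kb gave 1.25% and 5.09%, limits of 20 kb and 100 kb gave 39.8% and 21.0% far from genes, and assignment within 20 kb left 6 naive members. The gene-end share ran from 2.13% to 2.65% in the other 16 alternatives. The stricter settings hold fewer peaks by construction, and other causes were not tested. Calls near 7 reads at the summit limit what these lists can show.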
